A study of Triticum aestivum with 8 samples.

Results

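Of 61179 wheat probe sets, 124 read lower in droughted than in watered leaves of both WL711 and C306. A probe set is the group of short probes that reads a transcript on an Affymetrix array. Membership required, in each cultivar, that both drought values lay below both control values and that mean drought minus mean control was -0.5 or lower on the log2 scale. The members were therefore chosen by the drought contrasts themselves, and their drought values are given as a description with no test.

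Leaves of bread wheat (Triticum aestivum) were compared on 8 arrays in 4 groups of 2: WL711 control, WL711 drought, C306 control and C306 drought. Control plants were watered regularly, water was withheld from droughted plants from day 27 of age, and every sample was labelled as leaf of plants 48 days old, which leaves 21 days without water. WL711 and C306 are bread wheat cultivars, C306 being known among breeders as drought-tolerant and WL711 as drought-susceptible. The labels call the replicates biological without saying whether they came from separate plants or pots, so p-values measure the spread between these samples. In whole leaf, fewer cells of a type and less RNA per cell cannot be told apart.

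Water deficit closes stomata and limits the carbon dioxide that reaches the chloroplast, and leaves commonly lower transcripts of photosynthesis, cell division and cell wall growth. Rubisco fixes carbon dioxide in the Calvin cycle, and its large subunit carries the catalytic site. Dehydrins and other late embryogenesis abundant proteins are known instead for being induced when tissue dries. The values used here had been centred per probe set, so that the median of the 8 arrays was 0 for each, and no level of any transcript, including leaf markers, could be read from them.

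The members sat higher on all 4 control arrays than on all 4 drought arrays when summarised by their medians. On WL711 control the median member read 0.44 and 0.47 (centred log2, replicates 1 and 2), and in droughted WL711 -0.023 and -0.35. C306 control gave 0.34 and 0.060, and C306 drought -0.57 and -0.44. The medians over all probe sets lay between -0.025 and 0.024 on the 8 arrays. Replicates were not equal: C306 control replicate 2 had 74 of 124 members above 0 against 93 on replicate 1, and WL711 drought replicate 1 had 57 against 24 on replicate 2. All 4 control values lay above all 4 drought values in 38 of 124 members and in 759 of all 61179 probe sets. The rule asks for this order within each cultivar, so the members' count was raised by their choice.

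**Figure D1:**
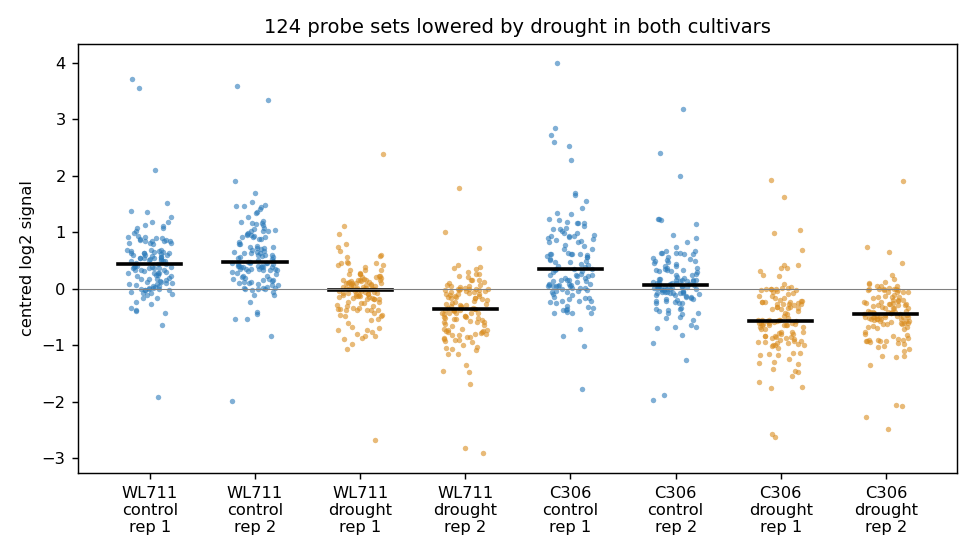
Centred log2 signal (vertical axis) of the 124 probe sets lowered in both cultivars on each of the 8 arrays (horizontal axis); points are probe sets, black bars are medians, blue is control and orange is drought. Medians run from 0.060 to 0.47 on the control arrays and from -0.57 to -0.023 on the drought arrays.

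Most decreases were close to the limit that defined them. The median change of the members was -0.67 in WL711 (lowest -2.61) and -0.69 in C306 (lowest -3.63), and 53 members lay between -0.75 and -0.5 in both cultivars. A change of -1 or lower was reached by 12 members in WL711, by 18 in C306 and by 1 in both. The gap between the lowest control and the highest drought value had a median of 0.36 in WL711 and 0.37 in C306, and was as small as 0.0056 and 0.0047. Just inside the limit were TaAffx.92919.1.A1_at at -0.68 in WL711 and -0.50 in C306, and Ta.5464.1.S1_at at -0.50 and -0.59. Just outside it were Ta.7907.1.A1_at, at -0.52 in WL711 and -0.496 in C306, and Ta.5224.2.S1_at, at -0.493 and -0.50. There were 46 members whose weaker change lay between -0.55 and -0.5, and 41 probe sets with separated arrays lay between -0.5 and -0.45.

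The number expected by independence was the first point of comparison. By the rule 2334 probe sets were lowered in WL711 (3.82% of all) and 1763 in C306 (2.88%). Had the cultivars been independent, 67.3 probe sets would have been lowered in both, and 124 were, which is 1.84 times that number. The shared probe sets made up 5.31% of the WL711 list and 7.03% of the C306 list. No test was made on this count or on those of the other combinations, which are given as a description.

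The other combinations of directions were counted under the mirrored rule. In all, 303 probe sets were raised in both cultivars against 119 expected, a ratio of 2.55. Probe sets lowered in WL711 and raised in C306 numbered 177 against 80.6 expected, a ratio of 2.19. Those raised in WL711 and lowered in C306 numbered 293 against 99.1 expected, a ratio of 2.96. With all 8 arrays, lowering in both had the smallest ratio of the 4 combinations. This order was not kept by every alternative: without WL711 control replicate 1 the ratio was 3.79 for lowering in both, against 1.82 and 2.64 for the opposite combinations. Without C306 drought replicate 2 it was 2.01, against 1.46 for lowering in WL711 with raising in C306. After repeated quantile normalization it was 2.11, against 2.09 for raising in both. Without the 3 arrays with low hybridisation controls, given below, it was 2.41, against 1.90 and 2.28 for the opposite combinations. It also exceeded the ratio for lowering in WL711 with raising in C306 at a limit of -0.3 (1.05 against 0.946). The same held without C306 control replicate 2 (1.672 against 1.668). With unadjusted p-values of limma, a moderated linear model, in place of the rule it was 1.11 against 1.06.

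The ratio for lowering in both moved with single arrays of WL711. Its value of 3.79 without WL711 control replicate 1 came with 317 probe sets. Without WL711 control replicate 2 it was 0.70, with 124 probe sets against 178.4 expected, and without WL711 drought replicate 2 it was 0.99, with 102 against 102.8. Without WL711 drought replicate 1 it was 2.37, with 249 probe sets. Leaving out a C306 array gave ratios from 1.42 to 2.01 and counts from 126 to 232, with 232 once C306 control replicate 2 was dropped and 190 once C306 drought replicate 2 was dropped.

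Array quality differed beside these counts. The interquartile range over all probe sets was 0.48 for WL711 control replicate 1, while the remaining 7 arrays had 0.22 to 0.30. Hybridisation controls were low on 3 arrays, with means of -0.72 (WL711 control replicate 1), -0.98 (C306 control replicate 2) and -0.91 (C306 drought replicate 1), the 5 remaining arrays having 0.022 to 0.13. Poly-A controls, RNAs added before labelling, stood at 0.59 and 0.52 in watered C306 against -0.053 and -0.042 in droughted C306. In WL711 the waterings overlapped, with -0.71 and -0.14 in watered and 0.24 and -0.39 in droughted leaves. Actin probe sets, as 3' minus 5' signal, read 0.42 and 0.27 in watered WL711 and -0.35 and -0.022 in droughted WL711. In C306 they overlapped, with -0.11 and 0.26 in watered and -0.24 and -0.083 in droughted leaves. Their part in the decreases was not tested.

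**Figure D2:**
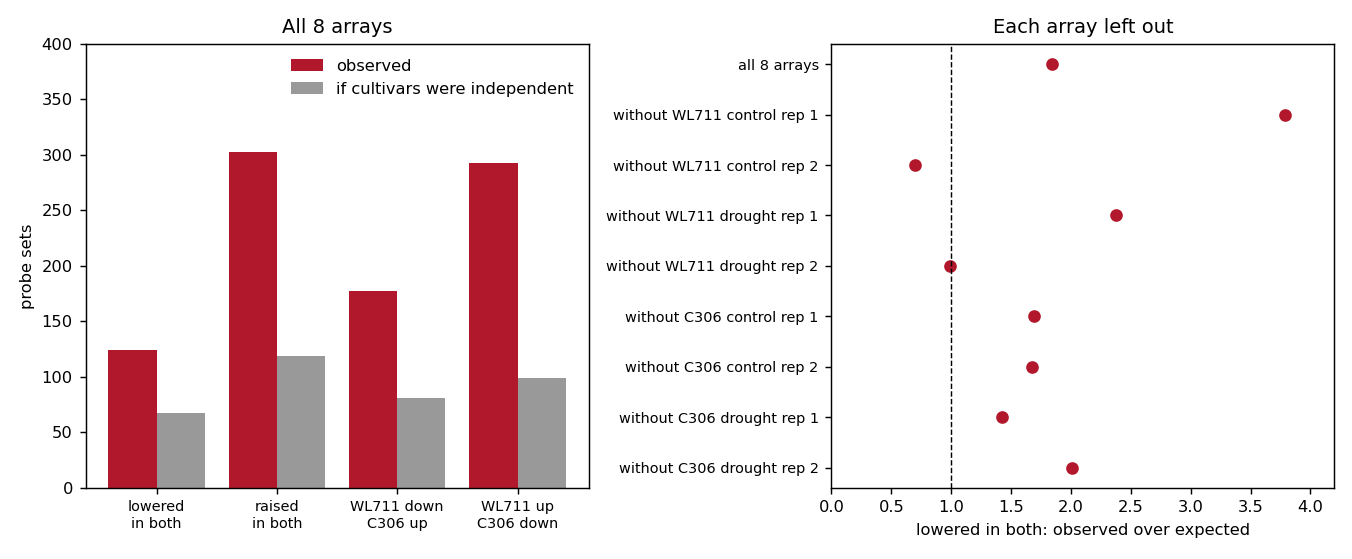
Left, probe sets (vertical axis) that passed the rule in both cultivars in each combination of directions (red) and the number expected if the cultivars were independent (grey). Right, the ratio of observed to expected for lowering in both (horizontal axis) with all 8 arrays and with each array left out, the dashed line being 1; the ratio runs from 0.70 to 3.79.

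The platform annotation named few members. It paired 8 of the 124 with a gene, 6.45% against 2.08% of all probe sets (1273 of 61179), and these 8 stood for 5 genes. All 5 gene numbers occur in RefSeq's wheat gene list (IWGSC CS RefSeq v2.1), from which only names were taken, and 1 of them had a name other than LOC with digits: LOC100049018, with the synonym rbcl, the name of the Rubisco large subunit gene. The other 116 members are given by their probe set identifiers, without a function.

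Of the 28 rbcl probe sets, 3 were members. TaAffx.128414.72.S1_at read 1.38 and 1.13 in watered WL711, 0.16 and 0.38 in droughted WL711, -0.16 and -0.55 in watered C306, and -1.04 and -0.93 in droughted C306, a change of -0.98 in WL711 and -0.63 in C306. In this probe set the cultivars did not overlap under either watering, and the drought values of WL711 lay above the control values of C306. TaAffx.128414.126.S1_at changed by -0.82 in WL711 and -0.70 in C306, and TaAffx.128414.130.S1_at by -0.68 and -0.58. Both had a C306 control replicate 1 (0.25 and 0.19) well above replicate 2 (-0.70 and -0.63), and the latter lay close to the drought values (-0.95 and -0.90 for the former, -0.68 and -0.93 for the latter). Without C306 control replicate 1 the C306 changes of the 3 members were -0.44, -0.23 and -0.17. Their identifiers share a start, and whether they read overlapping sequence was not tested.

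The remaining rbcl probe sets did not all read lower. Under the rule 7 of 28 were lowered in WL711 and 3 in C306, and 17 had a change below 0 in both cultivars. The median change over the 28 was -0.21 in WL711 (from -0.98 to 0.36) and -0.11 in C306 (from -0.70 to 0.26). The members were thus the lower end of a broad range of probe sets annotated to this gene.

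**Figure D3:**
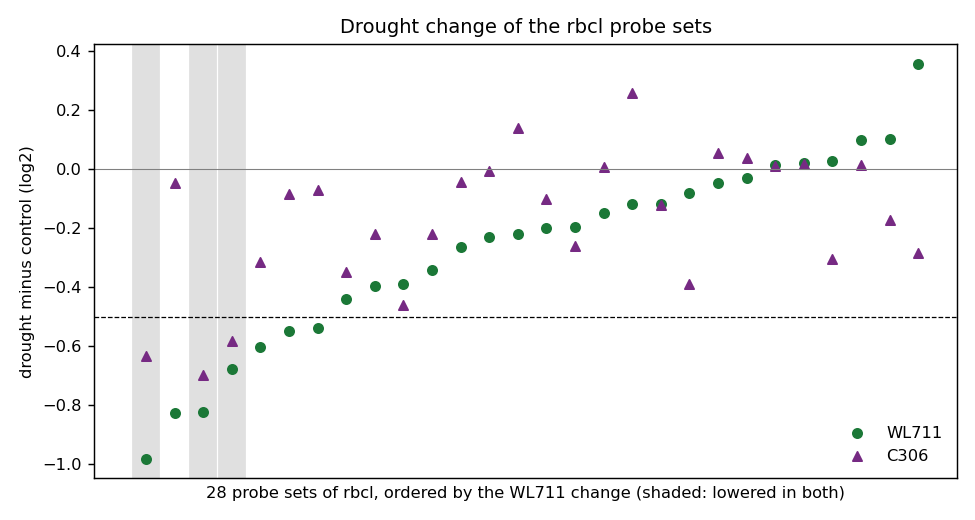
Drought minus control (log2, vertical axis) of the 28 rbcl probe sets in WL711 (green circles) and C306 (purple triangles), ordered by the WL711 change (horizontal axis); grey bands mark the 3 members and the dashed line the limit of -0.5. Changes run from -0.98 to 0.36 in WL711 and from -0.70 to 0.26 in C306.

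The other 4 annotated genes carried no name or function in the sources used here. LOC606366 had 2 members among its 4 probe sets. Ta.3828.3.A1_a_at read -0.057 and 0.15 in watered WL711 against -0.70 and -0.91 in droughted WL711, and 0.70 and 0.53 in watered C306 against -0.24 and 0.057 in droughted C306. Its changes were -0.85 and -0.71, and those of Ta.3828.3.A1_x_at, of the same identifier, were -0.61 and -0.61 (-0.34 in WL711 without control replicate 2). Of its other probe sets, Ta.3828.2.S1_x_at read -0.45 in WL711 and -0.35 in C306, and Ta.24427.1.S1_at read 0.035 and -0.073. The probe sets of LOC606366 therefore did not move alike.

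LOC100037562, LOC100049026 and LOC542880 had 1 member each. The only probe set of LOC100037562, Ta.124.1.S1_x_at, changed by -0.72 in WL711 and by -0.68 in C306, where control replicate 2 (-0.0052) and drought replicate 1 (-0.0099) nearly met and the change without control replicate 1 was -0.24. The only probe set of LOC100049026, TaAffx.128870.1.S1_at, changed by -0.53 and -0.66 (-0.39 in C306 without control replicate 1). For LOC542880, Ta.11386.2.S1_x_at changed by -0.55 and -0.58 (-0.22 in C306 without drought replicate 1), and its other 2 probe sets by -0.26 and -0.36 in WL711 and by -0.015 and -0.41 in C306, all on the same side of 0.

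Text patterns for 11 gene groups matched 114 annotated probe sets, and the 3 rbcl probe sets were the only members among them (2.63%, against 0.203% of all probe sets). Of the 1273 annotated probe sets, from which the groups were drawn, 8 were members. The 3 belong to the same gene and do not count as separate hits. The following counts are read against the 3.82% of all probe sets lowered in WL711 and the 2.88% lowered in C306. The photosystem, chlorophyll and Rubisco group had 31 probe sets, of which the 28 of rbcl held all 7 lowered in WL711 and all 3 lowered in C306, and the other 3 had none. Tubulin genes, for the microtubules of dividing and expanding cells, had 0 of 10 probe sets lowered in WL711 and 3 in C306. Histone genes, for the packing of newly copied DNA, had 0 of 18 in WL711 and 3 in C306. Gibberellin 20-oxidase genes, for a growth hormone, had 2 of 4 in WL711 and 0 in C306. Grain proteins, the markers of another tissue, had 3 of 21 in WL711 and 0 in C306. The dehydrin, LEA and Em group (10 probe sets), the ribosomal protein and initiation factor group (6), the lipid transfer group (2) and XTH (1) had none lowered in either cultivar, the peroxidase, catalase and glutathione group had 1 of 11 lowered in C306 and 0 in WL711, and the aquaporin pattern matched no name. These differences between cultivars were not tested.

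Among members without a gene, the largest decrease held in both cultivars belonged to TaAffx.92191.1.A1_at. It read -0.34 and 0.34 in watered WL711, -0.34 and -2.92 in droughted WL711, 1.66 and 1.24 in watered C306, and 1.0 and -0.93 in droughted C306, with changes of -1.63 and -1.42. Drought replicate 2 carried most of it in both cultivars: without it the changes were -0.34 in WL711 and -0.45 in C306. Ta.30664.1.S1_at changed by -1.27 and -0.98, with drought values of -0.73 and -0.76 in WL711 and of -1.13 and -0.12 in C306 against control values of 0.12 to 0.94 and of 0.30 and 0.41. Its C306 change was -0.47 without drought replicate 1.

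The other members with the largest shared decreases lay between -1 and -0.85 in WL711. Ta.21345.1.A1_at changed by -0.92 in WL711 and -1.33 in C306, and Ta.9683.1.A1_at by -0.98 (-0.49 without WL711 control replicate 2) and -0.86. TaAffx.84294.1.S1_at changed by -0.86 and -1.32, and TaAffx.54060.1.S1_at by -0.85 and -1.66. Without C306 control replicate 1 the C306 changes of Ta.21345.1.A1_at and TaAffx.84294.1.S1_at were -0.65 and -0.54. In TaAffx.84294.1.S1_at and TaAffx.54060.1.S1_at, WL711 drought replicate 1 (0.12 and 0.074) lay close under the WL711 control values (0.28 and 0.48, and 0.11 and 0.51), while replicate 2 read -1.08 and -1.16 and the WL711 changes without it were -0.26 and -0.24. The C306 change of TaAffx.54060.1.S1_at was -0.91 without drought replicate 2. Ta.20938.1.A1_at changed by -0.87 and -0.85, and Ta.2879.1.S1_at by -0.85 and -0.91. In Ta.2879.1.S1_at all 4 WL711 values (0.15 to 1.45) lay above all 4 C306 values (-1.48 to -0.15).

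**Figure D4:**
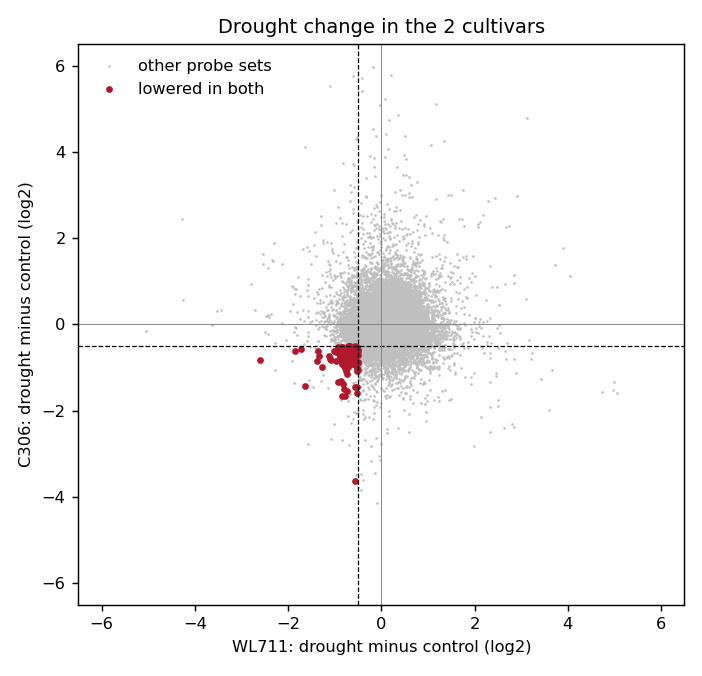
Drought minus control (log2) in WL711 (horizontal axis) and in C306 (vertical axis) for all 61179 probe sets; red points are the 124 lowered in both, grey points the others, and dashed lines the limit of -0.5. Grey points inside the lower left corner did not have separated arrays; 1 member lies at -1 or lower in both cultivars.

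The decrease was larger in C306 for 67 members and in WL711 for 57, and 78 members had changes within 0.25 of each other. In C306 the lowest was Ta.18647.3.S1_at, which read 3.99 and 3.18 on control and 0.36 and -0.46 on drought, against -0.089 and 0.089 in watered WL711 and -0.55 and -0.57 in droughted WL711. Its change was -3.63 in C306 and -0.56 in WL711, and the WL711 values lay between -0.57 and 0.089, with droughted C306 replicate 2 inside that range and replicate 1 above it. In WL711 the lowest was Ta.25193.1.S1_at, which read 3.72 and 3.60 on control and 1.10 and 1.01 on drought, against -1.01 and -1.97 in watered C306 and -2.58 and -2.06 in droughted C306. Its change was -2.61 in WL711 and -0.83 in C306 (-0.34 without C306 control replicate 1), and all WL711 values lay above all C306 values.

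These were also the only members past the threshold of limma, the moderated linear model fitted over all probe sets and 8 arrays, in a drought comparison. Ta.25193.1.S1_at was lower in droughted WL711 (SE 0.30, limma adjusted p = 0.0444), where 12 probe sets, or 0.0196% of all, were called lower. Ta.18647.3.S1_at was lower in droughted C306 (SE 0.31, limma adjusted p = 0.00934), where 6, or 0.00981%, were called lower. The rule used the same contrasts, so nothing is read from these counts. The WL711 call was lost without WL711 control replicate 1 or any drought array, and the C306 call without either WL711 control array. Averaged over cultivars, 0 of 124 members passed in limma, and all 124 had an unadjusted p under 0.05, against 11.1% of all probe sets. For the difference of the drought effects, 0 passed and 5 members (4.03%) had an unadjusted p under 0.05, against 9.79% of all. Both comparisons are built from the contrasts of the rule, which asks for a decrease in each cultivar. Their shares were thus largely set by the choice of members, and nothing is read from them. The smallest adjusted p of a difference was 0.0790, for Ta.18647.3.S1_at. Without C306 control replicate 2, 15 members of 421 probe sets called over all passed in C306, 15 of 171 averaged over cultivars and 1 of 199 for the difference, where all 8 arrays had called 30, 5 and 25 over all.

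The cultivar difference itself was not used by the rule, and it was large for many members. The demand for separated arrays does bear on the spread within groups, from which limma takes its SE. The share called is thus not free of the rule. C306 and WL711, averaged over watering, differed in 61 of 124 members (49.2%; limma adjusted p under 0.05) against 19.0% of all probe sets. Of these, 42 members were lower in C306 (33.9%, against 8.9% of all) and 19 were higher (15.3%, against 10.1%). A difference of at least 1 was seen in 32 of the 61, 21 lower and 11 higher. The median absolute difference was 0.58 over the members and 0.22 over all probe sets.

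This share was not particular to the members. Of the 303 probe sets raised in both cultivars, 50.8% differed between cultivars, as did 46.3% of the 177 lowered in WL711 and raised in C306 and 49.5% of the 293 with the opposite combination. The share was 30.9% among the 2210 lowered in WL711 and not in C306, 36.4% among the 1639 lowered in C306 and not in WL711, and 15.9% among probe sets past the rule in neither direction in either cultivar. As to direction, 42 of 61 called members were lower in C306, as were 489 of 683 called probe sets lowered in WL711 and not in C306. Of those lowered in C306 and not in WL711, 221 were lower and 376 higher, and of those raised in both cultivars 10 were lower and 144 higher. These contrasts were not tested. The averaged cultivar difference is uncorrelated with the drought contrasts only where arrays vary alike, and WL711 control replicate 1 varied more. Without that array 52 members were called, 37 lower and 15 higher in C306. Across the arrays left out in turn, 42 to 59 members were called, against 9.04% to 24% of all probe sets. The highest share over all, 24%, came without WL711 control replicate 2, where 42.7% of members were called.

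The largest cultivar differences in each direction were as follows, beginning with the probe sets lower in C306. Ta.14725.1.S1_at read 3.56 and 3.35 in watered WL711, 2.39 and 1.78 in droughted WL711, -1.78 and -1.88 in watered C306, and -2.62 and -2.27 in droughted C306, so that C306 minus WL711 was -4.91 (SE 0.16, limma adjusted p = 3.29e-07). Ta.25193.1.S1_at, given above, differed by -4.26 (SE 0.21, adjusted p = 4.51e-06). In both, C306 was lower on all 4 arrays. Ta.26007.1.A1_at followed at -2.21 (SE 0.18, adjusted p = 9.38e-05), with 0.72 to 1.91 in WL711 and -1.42 to -0.72 in C306.

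In the other direction, Ta.6210.1.S1_at read -1.91 and -1.98 in watered WL711, -2.67 and -2.81 in droughted WL711, 2.72 and 2.40 in watered C306, and 1.93 and 1.91 in droughted C306. Its difference was 4.58 (SE 0.11, limma adjusted p = 7.87e-08), against drought changes of -0.80 in WL711 and -0.64 in C306. Droughted C306 thus read far above watered WL711 for this probe set. In 10 members both droughted C306 values lay above both watered WL711 values. In 17 members both droughted WL711 values lay above both watered C306 values. Neither was counted over all probe sets, so they are not read as a trait of the members. Ta.4755.1.S1_s_at differed by 2.36 (SE 0.24, adjusted p = 0.000348), and Ta.18647.3.S1_at by 2.05 (SE 0.22, adjusted p = 0.000464). For Ta.18647.3.S1_at the difference was 3.59 in watered leaves (SE 0.31, adjusted p = 0.000255) and 0.51 in droughted leaves (SE 0.31, adjusted p = 0.387), the difference between these being that of the drought effects (adjusted p = 0.0790).

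Members with a gene differed between cultivars in both directions. For rbcl, TaAffx.128414.72.S1_at was lower in C306 by -1.43 (SE 0.13, limma adjusted p = 0.000168), TaAffx.128414.126.S1_at by -0.98 (SE 0.19, adjusted p = 0.00904) and TaAffx.128414.130.S1_at by -0.85 (SE 0.19, adjusted p = 0.0173). The last call was lost without C306 drought replicate 2 (-0.79), WL711 control replicate 1 (-0.75) or WL711 drought replicate 1 (-0.80). Of all 28 rbcl probe sets 10 passed, each lower in C306, as did 8.9% of all probe sets. These 10 share the identifier start TaAffx.128414 and belong to the same gene, so they do not count as separate hits. The range of the 28 ran up to 0.16 for a probe set that did not pass. Each of the 3 probe sets of LOC542880 passed as lower in C306, at -1.13 to -0.84. LOC100049026 was higher by 1.10 (SE 0.14, adjusted p = 0.00106), and the members of LOC606366 by 0.64 and 0.74 (adjusted p = 0.00842 and 0.00956). The other probe sets of LOC606366 did not pass: Ta.3828.2.S1_x_at read 0.25 (limma adjusted p = 0.206) and Ta.24427.1.S1_at -0.022 (limma adjusted p = 0.908). Ta.124.1.S1_x_at of LOC100037562 read -0.27 (SE 0.20, adjusted p = 0.364).

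Split by watering, the cultivar difference passed in 40 members in watered leaves (32.3%, against 11.0% of all) and in 29 in droughted leaves (23.4%, against 6.73%). In watered leaves, leaving out C306 control replicate 1 or WL711 control replicate 1 left 26 members (21.0%), against 5.06% and 4.67% of all. Without WL711 control replicate 2 there were 27 (21.8%) against 15.5% of all, the smallest excess. In droughted leaves, leaving out C306 drought replicate 1, WL711 drought replicate 1 or WL711 drought replicate 2 left 12, 12 and 13 members (9.68%, 9.68% and 10.5%), against 2.66%, 3.09% and 2.92% of all. In 25 members the difference passed under both waterings, and 109 of 124 had the same sign. Neither was counted over all probe sets, so they are not read as a trait of the members. Each of these comparisons shares arrays with the rule, so they are a description of where the averaged difference lay.

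**Figure D5:**
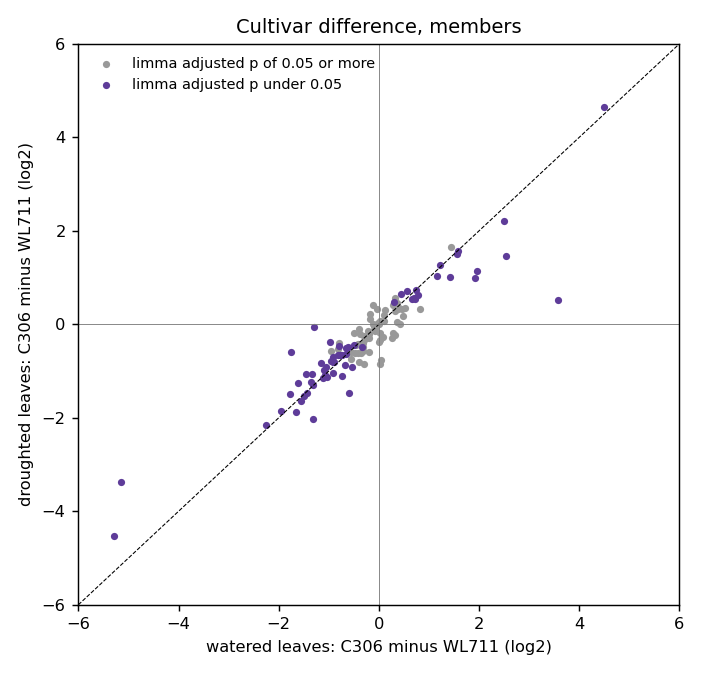
C306 minus WL711 (log2) in watered leaves (horizontal axis) and in droughted leaves (vertical axis) for the 124 members; purple points passed limma for the difference averaged over watering, grey points did not, and the dashed line marks equal differences. The point at 3.59 and 0.51 is Ta.18647.3.S1_at.

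Single arrays weighed on many of these sizes. Of the 44 drought changes of the 22 named members, 20, in 16 members, shrank by over 1.5 times when 1 array of the same cultivar was left out.

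Some members share their source. Their identifiers began with 112 distinct cluster numbers, of which 9 held more than 1 member and together 21 members. All 3 probe sets of the number Ta.11919 were members, with changes from -1.02 to -0.70 in WL711 and from -0.64 to -0.51 in C306. Of 6 probe sets of Ta.11022, 3 were members, and the other 3 read -0.48 to -0.32 in WL711 and -1.02 to -0.48 in C306, on the same side of 0. Of 59 probe sets of TaAffx.128414, the 3 rbcl probe sets above were members and the others ranged from -0.88 to 0.51 in WL711. Probe sets ending in _x_at, whose probes can also match other transcripts, made up 22 members (17.7%, against 11.1% of all), and 86 members had the plain ending _at.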

How the data were processed

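Leaf RNA of 8 samples was measured on Affymetrix arrays. The deposited values are log2 values from RMA, per the submitters' processing notes (its version is not given in the sources used), which were centred per probe set: the largest absolute median over the 8 arrays was 5e-07. The log base was not set against raw intensities. Of 61290 rows, 111 control probe sets (AFFX) were left out. Members, gene lists and comparisons were chosen with earlier results of these data known.

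The expected count was the product of the cultivars' counts over 61179. The test was limma 3.58.1 in R 4.3.3 (lmFit on 4 group means, contrasts.fit, eBayes; 4 residual and 4.63 prior degrees of freedom), with Benjamini-Hochberg adjustment over 61179 probe sets and a threshold of 0.05. On simulated data for the averaged cultivar difference over 61179 probe sets, 62.8% of changes of 1 and 93.8% of changes of 2 were recovered. A mean of 6.8 unchanged probe sets were called. Far fewer probe sets were changed there than the 19.0% called in the data. The adjusted p depends on that share. The simulated arrays also had the same spread within a probe set, while the spread of the arrays here differed. The recoveries and the false calls thus need not hold for the data. SE is limma's. The number of arrays limits the precision. Named were members with a gene, the 8 without one whose weaker decrease was largest, and the 3 highest and 3 lowest by averaged cultivar difference past the threshold; Ta.11919, Ta.11022 and TaAffx.128414 were added once their values had been seen. No sequences were used here. Filtering on dim probe sets was not possible on centred values.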

Additional observations from a re-analysis of the deposited data

How the results depend on the processing

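Each array was left out in turn. This gave 102 to 317 members, a ratio to the expected number of 0.695 to 3.79, and 42 to 59 members with an averaged cultivar difference (26 to 38 in watered and 12 to 35 in droughted leaves). Of all probe sets, 9.04% to 24% were called averaged over watering, 4.67% to 15.5% in watered and 2.66% to 7.25% in droughted leaves. Drought calls also moved with the array left out, over all probe sets as well as among the members, and nothing is read from them. The cause of the moves was not tested. A limit of -1 left 1 member (ratio 0.935) and a limit of -0.3 gave 583 (ratio 1.05), of which 124 were the members above. Without the demand for separated arrays 192 passed, and on the 5 arrays without low hybridisation controls, an alternative chosen after seeing the data, 455 passed, 75 of them members. Limma with an unadjusted p under 0.05 in both cultivars gave 162 with a ratio of 1.11, 77 of them members. Shifting the arrays to 1 median gave 116 members and repeated quantile normalization 144, of which 97 were members above.

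Requiring an absolute cultivar difference of at least 1 left 32 of 61 calls, by construction (25.8% of members, against 4.40% of all). Array weights left 26 of 40 members in watered leaves (21.0%), while the share of all probe sets fell from 11.0% to 5.75%. In droughted leaves array weights gave 37 members in place of 29 (29.8%), while the share of all rose from 6.73% to 11.5%. The WL711 drought call was lost (0 members) with array weights and with trend and robust eBayes, where 1 and 5 were called over all. It was also lost with the low hybridisation arrays as a block and after quantile normalization (4 and 16 over all). Without _x_at, _s_at and _a_at probe sets 2 members passed, of 33 called over all. The C306 call was lost (0 members) with trend and robust eBayes and on only the 4 arrays compared (0 and 3 over all). Averaged over cultivars, 1 member passed with the low hybridisation block, with the replicate block, and without _x_at, _s_at and _a_at probe sets. Over all probe sets 25, 6 and 5 were called there. These drought contrasts are those of the rule or built from them, so nothing is read from the counts. With the replicate number as a block, 57 members (46.0%, against 17.2% of all) had an averaged cultivar difference. Pairing same-numbered arrays in the rule gave 137 members (ratio 1.83). Replicate differences of the 4 groups correlated between -0.093 and 0.11 over probe sets, so the numbers were not shown to pair the arrays. Of the named cultivar differences, those of Ta.18647.3.S1_at, Ta.20938.1.A1_at, TaAffx.128414.130.S1_at and Ta.9683.1.A1_at lost their call in 1, 2, 3 and 6 of 15 alternatives, and none changed sign. The planned treat test was run as a minimum change among calls.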

Other observations

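Identifier features that the rule did not use differed between the members and the array as a whole. In Affymetrix identifiers a letter near the end, S or A (S1_at or A1_at), gives the orientation field of the sequence. The letter was A in 38 of 124 members (30.6%), against 17.4% of all probe sets. It was A in 24.3% of probe sets lowered in C306 and not in WL711, in 16.2% of those lowered in WL711 and not in C306, and in 19.5% of those raised in both cultivars. Identifiers starting with TaAffx made up 35.5% of the members and 48.5% of all probe sets, and also 25.4% of those raised in both, 28.4% of those lowered in C306 and not in WL711, and 52.9% of those lowered in WL711 and not in C306. These shares were not tested.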
